A study of Mus musculus with 8 samples.

Results

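The 10 genes examined here belong to the nuclear receptor superfamily and were measured in eosinophils sorted from the bone marrow and the small intestine of mice: the retinoic acid receptors Rara and Rarg, their partner Rxra, the vitamin D receptor Vdr, the fatty acid receptors Pparg and Ppard, the oxysterol receptors Nr1h2 and Nr1h3, the glucocorticoid receptor Nr3c1 and the retinoid-related orphan receptor Rora. They were taken by symbol from a table of 38392 genes, and all 10 were found in it, each with a mean of at least 10 normalised reads over the 8 libraries. The animals were wildtype female mice on the C57/BL6 background with no treatment, and the labels give no age for the animals. The 4 bone marrow libraries (columns BM_1, BM_3, BM_4 and BM_5) came from CD11b+Ly6G-Ly6C-SiglecF+SSChi cells and the 4 small intestine libraries (SI_6, SI_7, SI_10 and SI_11) from CD11b+MHC-II-SiglecF+SSChi cells. Intestinal tissue was stripped of its epithelium and digested with enzymes, and its cells were enriched on CD11b beads before the sort. Marrow was not treated in this way, so tissue and handling cannot be told apart. Column names gave the tissue and not the single animal.

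Nuclear receptors are transcription factors whose activity is set by small lipid-soluble ligands. RARA, RARG, VDR, the PPARs and the LXRs (the products of Nr1h2 and Nr1h3) bind DNA as pairs with an RXR partner, while the glucocorticoid receptor waits in the cytoplasm on heat shock chaperones until cortisol or corticosterone binds it. The intestine absorbs and converts vitamin A, and retinoic acid made there shapes the homing of its lymphocytes. Glucocorticoids shorten the life of eosinophils and are a mainstay of treatment in eosinophilic disease.

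Reads in genes numbered 11508002 to 21289164 per library. Of 10 eosinophil marker genes, none was at 0 in either tissue, 4 were called higher in small intestine and 5 lower. Together they took 0.0211% to 0.0373% of reads in bone marrow and 0.215% to 0.268% in small intestine. Siglecf and Ccr3, which define the cell type at the surface, rose by 2.39 and 7.83 log2 units, and the granule protein gene Prg2 fell by 3.62. Marker lists of other cell types moved with tissue too. The 12 genes of neutrophil precursors took 3.96% to 4.69% of reads in bone marrow and 0.00820% to 0.00993% in small intestine, and the 12 genes of intestinal epithelium took 0.000277% to 0.000909% and 0.0321% to 0.224%, with Apoa4 at 0 in bone marrow. The 12 genes of fibroblasts, endothelium and smooth muscle took 0.00349% to 0.00439% and 0.0565% to 0.0651%. All 12 were called higher, but most reads of this list were those of a single gene, Pecam1, with 6212 to 8025 reads per intestinal library. Pecam1 rose by 4.40 log2 units, Myh11 by 4.35 and Tagln by 0.73, so the sum mainly follows Pecam1. The genes of monocytes, macrophages and dendritic cells, also 12, took 0.0573% to 0.0740% and 0.0947% to 0.101%. This sum hides opposite moves, with 7 genes called higher and 1 lower. Ly6c2 fell by 8.67 log2 units, while Adgre1 and Csf1r rose by 6.38 and 2.77. In bone marrow the neutrophil precursor gene Mpo had a mean of 149860 counts, and Ccr3 had 70.9. Ly6c2 had a mean of 8268 counts there, although the cells were sorted as Ly6C-. The identity of the marrow cells is thus not settled by these markers. The part of these cells in the receptor differences was not tested except where values are given beside a gene, and in sorted bulk RNA fewer cells of a type and less RNA per cell cannot be told apart.

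Of the 10 receptors, 7 were higher in small intestine, 0 were lower, and 3 gave no call. Vdr, Rxra and Rara rose most, by 5.27 ± 0.63, 4.63 ± 0.20 and 4.33 ± 0.44 units of the deposited log2 scale (difference ± SE, n = 4 per tissue). Nr3c1, Ppard, Rarg and Nr1h3 rose by between 1.56 and 2.01 units. Rora, Pparg and Nr1h2 did not pass the test. A call is an adjusted p under 0.05 in limma, fitted on all genes, and differences are small intestine minus bone marrow throughout. Of all genes, 22% were called higher and 12.9% lower, and among 16308 genes whose mean reached 10 normalised reads 35.3% were called higher and 28.1% lower. In 7 receptors every small intestine library lay above every bone marrow library, and in 1, Nr1h2, every one lay below, against 20.3% and 13.9% of all genes. The median difference was 1.75 over the 10 receptors and 0.37 over all genes. With each library centred on its median over all genes, the median over all genes was -0.53, the calls over all genes turned from 8465 higher and 4937 lower to 4285 and 10216, and 4 receptors (Rara, Rxra, Vdr and Nr3c1) stayed higher while Nr1h2 was called lower at -1.17.

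**Figure D1:**
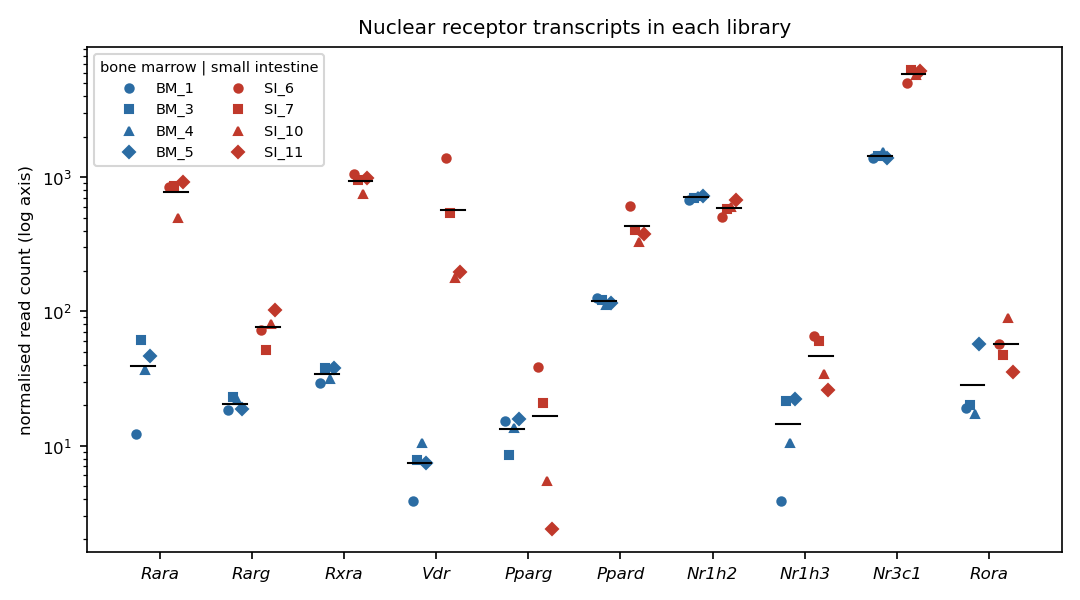
Normalised read counts (recovered reads divided by the size factor of the library, log axis) of the 10 receptors in the 4 bone marrow libraries (blue) and the 4 small intestine libraries (red), with a bar at the mean of each tissue. Rara, Rxra and Vdr show the widest gaps between tissues, Vdr spreads from 178 to 1378 within small intestine, and Pparg and Rora overlap.

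The start sites of the receptors were looked up in RefSeq. RefSeq windows of build GRCm38.p6 were read for 9 of the 10 receptors, and that of Nr3c1 is not reported here. The 250 bases before the most upstream start site were taken for each of the 9. The windows of the 3 largest rises are shown with that of Nr1h2, whose level did not rise, and capitals mark the GC box GGGCGG on either strand, the element bound by the SP1 family. They lie at chr11:98937446-98937695 (plus strand, Rara), chr2:27676951-27677200 (plus strand, Rxra), chr15:97908297-97908546 (minus strand, Vdr) and chr7:44553966-44554215 (minus strand, Nr1h2).
Rara: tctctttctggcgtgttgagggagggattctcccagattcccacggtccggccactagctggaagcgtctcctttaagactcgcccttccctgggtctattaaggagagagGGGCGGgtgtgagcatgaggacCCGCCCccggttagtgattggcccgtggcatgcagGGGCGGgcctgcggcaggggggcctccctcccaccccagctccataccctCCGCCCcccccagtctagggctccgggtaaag
Rxra: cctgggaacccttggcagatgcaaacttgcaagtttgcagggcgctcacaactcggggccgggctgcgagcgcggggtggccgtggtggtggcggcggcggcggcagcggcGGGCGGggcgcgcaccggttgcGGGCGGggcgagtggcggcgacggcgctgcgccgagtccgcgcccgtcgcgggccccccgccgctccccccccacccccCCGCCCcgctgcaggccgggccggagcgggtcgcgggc
Vdr: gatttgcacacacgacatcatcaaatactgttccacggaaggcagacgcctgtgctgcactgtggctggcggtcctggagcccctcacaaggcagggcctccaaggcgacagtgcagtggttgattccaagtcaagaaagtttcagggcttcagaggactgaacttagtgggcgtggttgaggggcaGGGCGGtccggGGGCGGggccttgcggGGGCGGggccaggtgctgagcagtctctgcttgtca
Nr1h2: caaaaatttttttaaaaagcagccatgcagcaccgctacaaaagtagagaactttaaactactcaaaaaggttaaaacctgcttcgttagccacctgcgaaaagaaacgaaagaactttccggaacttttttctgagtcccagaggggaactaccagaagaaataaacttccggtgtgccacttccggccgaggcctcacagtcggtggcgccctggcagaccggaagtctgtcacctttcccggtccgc

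The Rara window held 4 GC boxes, the Rxra and Vdr windows 3 each, and the Nr1h2 window 0. The windows of Ppard and Rarg, which rose less, also held 3 each. GC content was 65.2% for Rara, 81.2% for Rxra, 61.2% for Vdr and 48.4% for Nr1h2, against a median of 52.4% over 32851 windows. It was 69.6% for Ppard, 74.4% for Rarg and 63.2% for Nr1h3. Pparg and Rora, which gave no call, had 82.4% and 61.2%, so GC content did not divide the receptors by call. Of the most upstream windows of the 9 receptors, 6 held a GC box (Rara, Rarg, Rxra, Vdr, Ppard and Pparg), against 33.0% of those of 27025 genes. Pparg held one and gave no call, and Nr1h3 held none and was called higher, so the box did not divide the receptors by call. The hexamer AGGTCA, a core sequence that many nuclear receptors recognise, stood in the most upstream windows of Pparg and Rarg. Another window of Pparg and a downstream window of Rxra also held it. The share over all windows, with several for some genes, was 14.0%, and none was taken over most upstream windows alone. These matches describe letters and are not measured binding.

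Rara encodes the retinoic acid receptor alpha, the isotype most used by leukocytes (ENSMUSG00000037992, GRCm38 chromosome 11, 98927818 to 98974942). Its normalised read counts were 12.3, 61.3, 36.4 and 46.5 in BM_1, BM_3, BM_4 and BM_5, and 845, 853, 498 and 927 in SI_6, SI_7, SI_10 and SI_11. The groups were far apart: the lowest small intestine library, SI_10, held 8.12 times the count of the highest bone marrow library, BM_3. Rara was 19.96-fold higher by the ratio of means, and the difference of 4.33 ± 0.44 had a limma adjusted p of 0.000123. Within bone marrow BM_1 was lowest, on 16 reads.

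Rarg, the retinoic acid receptor gamma, is better known from skin and from stem cells (ENSMUSG00000001288, chromosome 15, 102234938 to 102257517). It gave 18.4, 22.8, 22.01 and 18.6 normalised counts in the bone marrow libraries and 73.1, 51.3, 81.0 and 102 in the small intestine libraries, in the same order of columns. The tissues did not overlap, and within intestine SI_7 was lowest and SI_11 highest. Rarg rose by 1.71 ± 0.24 (limma adjusted p = 0.000655).

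Rxra encodes the retinoid X receptor alpha, the shared partner of most of the receptors described here (ENSMUSG00000015846, chromosome 2, 27676440 to 27762957). Its counts were 29.1, 37.8, 31.6 and 38.1 in bone marrow and 1054, 957, 746 and 986 in small intestine. Every intestinal library held at least 19.6 times the highest bone marrow count, the widest such gap among the 10 receptors, and the spread within each tissue was small. The rise was 27.4-fold by means and 4.63 ± 0.20 on the deposited scale (limma adjusted p = 1.44e-06). Rxrb, the other widely expressed RXR gene, gave 234 to 329 counts in bone marrow and 258 to 327 in small intestine, with a difference of -0.07 ± 0.20 (limma adjusted p = 0.814).

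**Figure D2:**
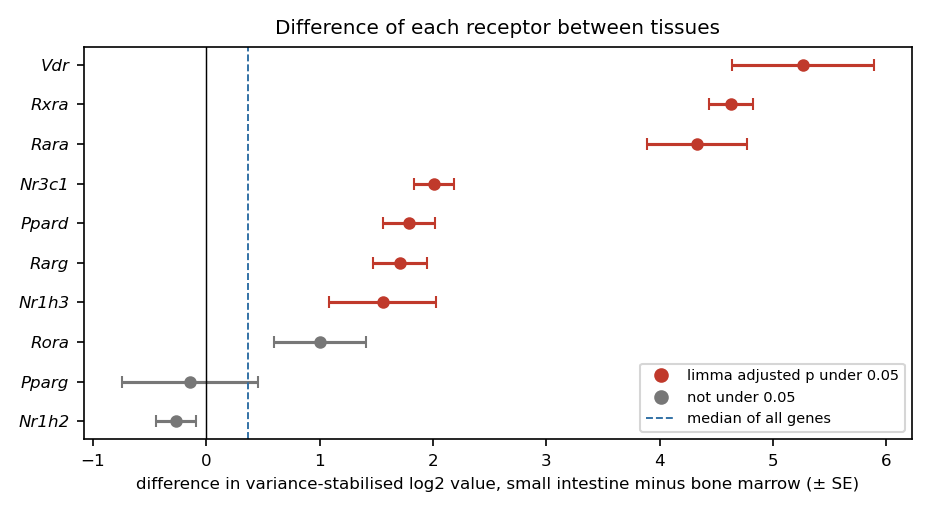
Difference between tissues of each receptor in the deposited variance-stabilised log2 value, small intestine minus bone marrow, with bars for the limma SE. Red points passed an adjusted p of 0.05 and the dashed line is the median of all genes at 0.37. Vdr, Rxra and Rara lie beyond 4, the other 4 called receptors lie between 1.56 and 2.01, and Pparg and Nr1h2 lie under 0.

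Vdr encodes the receptor for calcitriol, the active form of vitamin D, and is strongly expressed by enterocytes, where it governs calcium uptake (ENSMUSG00000022479, chromosome 15, 97854425 to 97910630). It had 3.83, 7.83, 10.5 and 7.44 normalised counts in the bone marrow libraries, the lowest mean per length among the 10 receptors, and 1378, 538, 178 and 196 in SI_6, SI_7, SI_10 and SI_11. All intestinal libraries lay at least 16.9 times above the highest marrow library, but they ranged over 7.73-fold among themselves, with SI_6 far above SI_10 and SI_11. The rise was 77.3-fold by means and 5.27 ± 0.63 on the deposited scale (limma adjusted p = 0.000286). Without SI_6 it was 41.1-fold by means and 4.68 on the deposited scale (limma adjusted p = 0.000373).

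The spread of Vdr within small intestine ran with the epithelial marker list. That list took 0.224% of reads in SI_6, 0.0991% in SI_7, 0.0322% in SI_10 and 0.0321% in SI_11, a range of 6.99-fold. Per 1000 epithelial marker reads, Vdr had 39.5 reads in SI_6, 34.0 in SI_7, 36.3 in SI_10 and 35.4 in SI_11, so its ratio to these transcripts was nearly level across the intestinal libraries. In bone marrow, where the list had 41 to 124 reads per library, the same ratio was 64.5 to 268 on few Vdr reads. Rara did not keep such a ratio, with 24.2, 53.9, 101 and 168 reads per 1000 epithelial marker reads in the same intestinal libraries. Rxra ran from 30.3 in SI_6 to 179 in SI_11 and Nr3c1 from 144 in SI_6 to 1182 in SI_10. The nuclear receptor genes Hnf4a and Hnf4g, textbook regulators of enterocytes, were also highest in SI_6 and lowest in SI_10, Hnf4a with 3160 and 343 counts. Vdr, Pparg, Ppard and Nr1h3 shared the order of the epithelial list, with SI_6 above SI_7 and both above SI_10 and SI_11, as did 17.6% of the 16308 better covered genes. The part of epithelial RNA in the rise of Vdr was not tested.

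**Figure D3:**
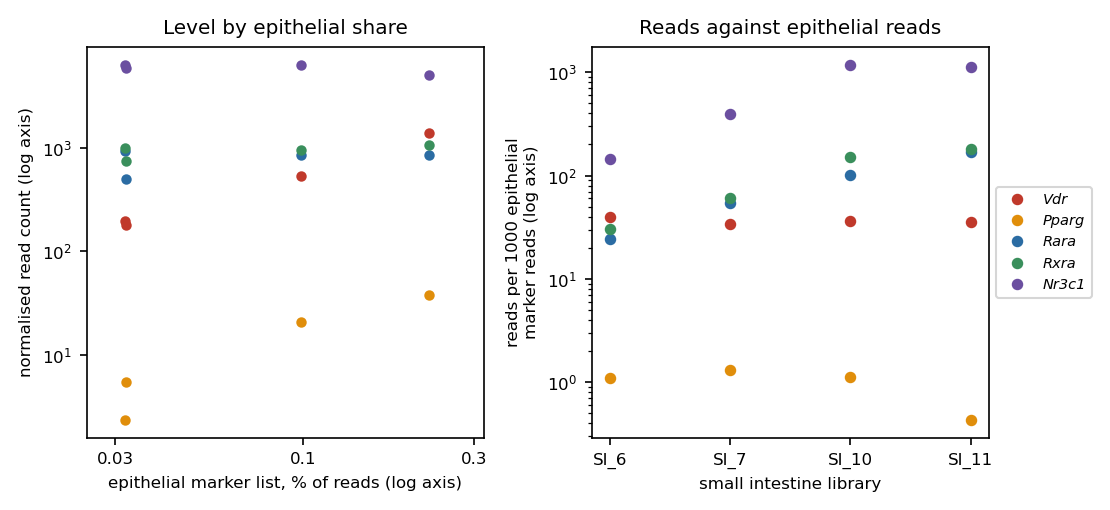
Left, normalised read count (log axis) of 5 receptors against the percentage of reads in the epithelial marker list (log axis) in the 4 small intestine libraries. Right, reads of the same receptors per 1000 epithelial marker reads in each library (log axis): Vdr stays between 34.0 and 39.5, while Rara runs from 24.2 to 168 and Nr3c1 from 144 to 1182.

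The genes most like Vdr over the 8 libraries, after each was centred on its own mean, were Defa17, Guca2b and Clic6, with root mean square distances of 0.29, 0.32 and 0.33 log2 units. All of them had 0 reads in bone marrow and means of 92.7, 73.9 and 87.1 normalised counts in small intestine. Defa17 is an alpha-defensin of Paneth cells with near-identical copies, so its reads are uncertain, and Guca2b encodes the gut peptide uroguanylin.

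Pparg encodes the fatty acid receptor PPAR gamma, known from adipocytes and alveolar macrophages (ENSMUSG00000000440, chromosome 6, 115360951 to 115490399). It gave 15.3, 8.48, 13.4 and 15.8 counts in bone marrow and 38.2, 20.8, 5.47 and 2.37 in SI_6, SI_7, SI_10 and SI_11. SI_6 and SI_7 lay above all marrow libraries and SI_10 and SI_11 below all of them, so the tissues overlapped completely. The mean was 1.26-fold higher in small intestine while the difference on the deposited scale was -0.14 ± 0.60 (limma adjusted p = 0.874), and it was -0.64 without SI_6, 0.11 without SI_10 and 0.34 without SI_11. The ratio of means was 0.721 without SI_6. Pparg reads per 1000 epithelial marker reads were 1.10, 1.32, 1.11 and 0.429 in the intestinal libraries.

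Ppard encodes PPAR delta, a broadly expressed regulator of fatty acid oxidation (ENSMUSG00000002250, chromosome 17, 28232700 to 28301474). Its counts were 126, 121, 112 and 115 in bone marrow and 609, 401, 327 and 379 in small intestine. The marrow libraries were nearly level, and the lowest intestinal library held 2.60 times the highest of them. Ppard rose by 1.79 ± 0.23 (limma adjusted p = 0.000421), and by 1.61 without SI_6, its highest library (limma adjusted p = 0.000202).

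Nr1h2 encodes LXR beta, the broadly expressed receptor for oxysterols, which turns on cholesterol export (ENSMUSG00000060601, chromosome 7, 44549616 to 44553951). It gave 679, 702, 727 and 721 counts in bone marrow and 506, 580, 599 and 671 in small intestine. All intestinal libraries lay below all marrow libraries by a narrow margin, with SI_11 at 671 just under BM_1 at 679. The difference was -0.27 ± 0.17 (limma adjusted p = 0.279). The genes most like it over the 8 libraries were Septin7, Ift52 and Dcp2, at distances of 0.056, 0.057 and 0.060, and they differed by -0.26, -0.20 and -0.31 with limma adjusted p-values of 0.284, 0.451 and 0.214.

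Nr1h3 encodes LXR alpha, the form typical of macrophages, liver and gut (ENSMUSG00000002108, chromosome 2, 91184061 to 91202834). Its counts were 3.83, 21.5, 10.5 and 22.3 in bone marrow and 65.5, 59.6, 33.9 and 26.1 in small intestine. The tissues were separate but close, since SI_11 lay only 1.17 times above BM_5. The rise of 1.56 ± 0.47 passed the test narrowly (limma adjusted p = 0.0335), and it passed in 8 of the 16 alternative analyses. Leaving out BM_1, BM_4, SI_6, SI_7 or SI_10 each ended the call, with limma adjusted p-values of 0.0678, 0.0863, 0.0989, 0.102 and 0.0765. Nr1h3 shares 34 exon bases on the same strand with Gm13783, whose mean was 0.764 counts.

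Nr3c1 encodes the glucocorticoid receptor (ENSMUSG00000024431). It gave 1397, 1431, 1533 and 1394 counts in bone marrow and 5006, 6286, 5800 and 6199 in small intestine. Replicates were tight in both tissues, and the lowest intestinal library held 3.27 times the highest marrow library. Nr3c1 was 4.05-fold higher by means and rose by 2.01 ± 0.17 (limma adjusted p = 4.80e-05). SI_6, the library richest in epithelial transcripts, was its lowest intestinal library, and without SI_6 the rise was 2.08 (limma adjusted p = 4.62e-05).

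Rora encodes the orphan receptor ROR alpha, which acts in the circadian clock and in innate lymphoid cells (ENSMUSG00000032238, chromosome 9, 68653786 to 69388246). Its counts were 19.2, 20.2, 17.2 and 56.7 in bone marrow and 56.8, 47.2, 88.6 and 35.6 in small intestine. BM_5 stood apart from the other marrow libraries and lay within the intestinal range, while the other marrow libraries lay below all intestinal ones. The difference of 1.01 ± 0.41 did not pass the test (limma adjusted p = 0.0917), and without BM_5 it was 1.36 and passed (limma adjusted p = 0.0117). Rora shares 82 exon bases with the antisense gene Gm15511, whose mean was 0.929 counts, and the strand setting of the counting was not given.

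Levels of different genes can be set side by side only per length, here as normalised reads per kb of annotated exon. In bone marrow Nr1h2 stood first with 211 ± 6.47 and Nr3c1 next with 187 ± 8.48 (SD, n = 4), followed by Ppard with 15.8 ± 0.802, and each of these ranges lay above the next. The remaining order, Rara 8.96, Rxra 6.25, Nr1h3 5.78, Rarg 4.80, Pparg 4.49, Rora 2.17 and Vdr 1.31 reads per kb, had overlapping neighbours at every step. In small intestine Nr3c1 stood alone at the top with 758 ± 76.0 reads per kb. Rara with 179 ± 44.0, Nr1h2 with 176 ± 20.2, Rxra with 171 ± 24.3, Vdr with 101 ± 99.4 and Ppard with 57.1 ± 16.5 followed, each overlapping its neighbour. Ppard lay above Nr1h3 with 18.4 ± 7.64, and Nr1h3, Rarg with 18.0, Pparg with 5.66 and Rora with 4.36 reads per kb overlapped in turn. Vdr was thus last per length in bone marrow and next to Rxra in small intestine, and Rara and Rxra overlapped Nr1h2 in small intestine and lay far under it in bone marrow. Per kb of the longest transcript in place of all exons, Nr1h2 led Rara and Rxra in small intestine with 295 against 231 and 191 reads per kb, and Rxra, at most 215, no longer overlapped Nr1h2, at least 253.

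Ratios between related receptors within a library do not depend on how libraries are scaled to each other. The log2 ratio of Rarg to Rara reads, with 0.5 read added to each, went from -0.71 ± 0.91 in bone marrow to -3.34 ± 0.60 in small intestine (mean ± SD, n = 4), so the pair shifted toward Rara. The ratio of Rxrb to Rxra went from 3.10 ± 0.35 to -1.73 ± 0.20, which turned the pair from mostly Rxrb reads to mostly Rxra reads in every library. Pparg to Ppard went from -3.16 ± 0.42 to -5.24 ± 1.42. Nr1h3 to Nr1h2 went from -5.84 ± 1.11 to -3.75 ± 0.78, toward LXR alpha, although Nr1h2 kept more reads in all libraries. For each of the 4 pairs the tissues did not overlap, and the 2-sided exact permutation test gave 0.0286, the smallest p that 70 assignments allow, also after Benjamini-Hochberg adjustment over the 4 pairs.

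**Figure D4:**
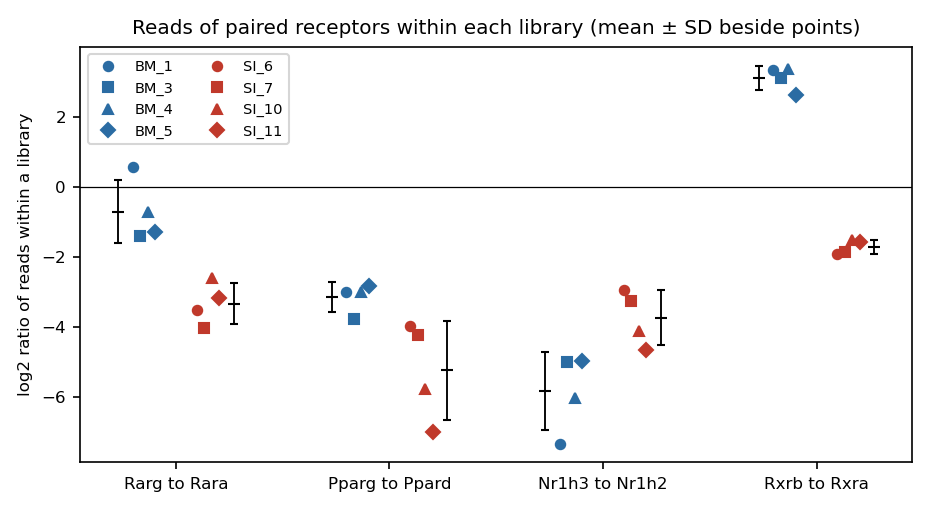
Log2 ratio of reads of paired receptors within each library, with 0.5 read added to each gene, and the mean ± SD of each tissue beside its points. Above 0 the first gene of a pair has more reads: Rxrb to Rxra crosses 0, from a mean of 3.10 in bone marrow (blue) to -1.73 in small intestine (red), and Nr1h3 to Nr1h2 rises while the Rarg and Pparg ratios fall.

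Of the 39 other nuclear receptor genes, 23 (59.0%) were higher in small intestine and 3 (7.69%) lower, against 22% and 12.9% of all genes, with a median difference of 1.74. The early response receptors Nr4a3 and Nr4a1 rose most, by 8.74 ± 0.36 and 7.44 ± 0.34, and Thra, a thyroid hormone receptor, and Esr1, an oestrogen receptor, fell by 1.88 ± 0.46 and 1.77 ± 0.21 (limma adjusted p between 1.21e-06 and 0.0121). Thra passed the test in all alternatives but the one without SI_10.

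Of 25 genes that carry, make, break down or respond to retinoids, 15 (60%) were higher and 1 (4%) lower, with a median of 1.26. The shares over all genes were 22% and 12.9%. Of the 18 listed genes with a mean of 10 or more, 11 were higher and 1 lower. At that coverage 35.3% of all genes were called higher and 28.1% lower. Tgm2, the transglutaminase long known as a retinoic acid target, rose by 10.42 ± 0.22 from a mean of 58.4 to 84410.5 counts, and Cyp26a1, the enzyme that clears retinoic acid, rose by 5.42 ± 0.41 from 0.814 to 127 counts. Rdh12, a retinal reductase, fell by 0.84 ± 0.25 (limma adjusted p = 0.0290). The receptor gene Rarb, itself a classical retinoic acid target, differed by 1.01 ± 0.38 without passing the test (limma adjusted p = 0.0729). Without BM_1 the list had 9 higher calls, and without BM_1, BM_4 or SI_7 it had 0 lower calls, since Rdh12 no longer passed. Of the genes called higher, Rbp2, Aldh1a1, Aldh1a2 and Rai14 shared the order of the epithelial list within small intestine. Rbp2 ran from 136 counts in SI_6 to 10.9 in SI_10. The other genes called higher, Tgm2 and Cyp26a1 among them, did not share that order.

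Of 12 genes of vitamin D metabolism and response, 2 were higher and 1 lower, shares near those of all genes, with a median of 0.88. Cyp24a1, the calcitriol-degrading enzyme and a sensitive target of VDR, had 0, 0.652, 0 and 1.86 counts in bone marrow and 7.64, 6.93, 19.7 and 1.19 in small intestine. Its ranges overlapped and its levels were low, and the difference was 1.88 ± 0.54 (limma adjusted p = 0.0268). S100g, the calbindin of enterocytes, rose by 1.33 ± 0.37 (limma adjusted p = 0.0226), and Pdia3, an endoplasmic reticulum isomerase also described as a membrane receptor for calcitriol, fell by 2.25 ± 0.26 (limma adjusted p = 0.000227). The number called higher was 0 without BM_1, BM_3 or SI_10, 1 without BM_4, SI_6 or SI_7, and 4 without SI_11.

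Of 20 PPAR target genes, 10 (50%) were higher and 5 (25%) lower, with a median of 0.93, and 18 of the 20 had a mean of 10 or more. At that coverage 35.3% of all genes were called higher and 28.1% lower, so the lower share of the list lay near it. Hilpda, a lipid droplet protein, rose by 5.64 ± 0.34. Angptl4 and Lpl, an inhibitor of lipoprotein lipase and the lipase itself, fell by 3.60 ± 0.35 and 1.74 ± 0.28 (limma adjusted p between 7.76e-06 and 0.00139 for these 3 genes). Of 17 LXR target genes, 12 (70.6%) were higher and 3 (17.6%) lower, with a median of 2.21. A mean of 10 or more was reached by 16 of the 17, the coverage with 35.3% and 28.1% of all genes called. Arl4c rose by 8.61 ± 0.34 and the sterol transporter gene Abcg8 by 4.96 ± 0.52, while the lipid synthesis genes Scd2 and Fasn differed by -2.91 ± 0.26 and -2.004 ± 0.21 (limma adjusted p between 1.04e-06 and 0.000140). Abcg8 shared the order of the epithelial list within small intestine.

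Of 22 chaperones and targets of the glucocorticoid receptor, 10 (45.5%) were higher and 9 (40.9%) lower, with a median of 0.41. All 22 had a mean of 10 or more, where 35.3% of genes were called higher and 28.1% lower, so calls in both directions are common at this coverage. Dusp1, a MAP kinase phosphatase, rose by 7.93 ± 0.27, and Il1r2, the decoy receptor for interleukin 1, by 6.31 ± 0.18. Anxa1, the anti-inflammatory annexin, fell by 7.29 ± 0.24, and Hsd11b1, which regenerates active glucocorticoid, fell by 3.83 ± 0.20 (limma adjusted p between 2.61e-07 and 3.70e-06).

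Of 13 clock genes, among them genes with ROR elements, 7 (53.8%) were higher and 3 (23.1%) lower, with a median of 1.22. All 13 had a mean of 10 or more, where 35.3% of all genes were called higher and 28.1% lower. Bhlhe40 rose by 4.73 ± 0.21 and Npas2 by 3.36 ± 0.77, and Per3 and Cry2 fell by 4.36 ± 0.22 and 1.42 ± 0.24 (limma adjusted p between 1.61e-06 and 0.00910). Of 25 coregulators, all with a mean of 10 or more, 7 (28%) were higher and 8 (32%) lower, with a median of 0.06. These shares lie near the 35.3% and 28.1% of all genes of that coverage, so the list shows nothing particular. The coactivator genes Ppargc1a and Ncoa3 rose by 4.27 ± 0.77 and 2.26 ± 0.17, and the Mediator subunit gene Med14 fell by 1.22 ± 0.18 (limma adjusted p between 2.35e-05 and 0.00263). Npas2 and Ppargc1a shared the order of the epithelial list.

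**Figure D5:**
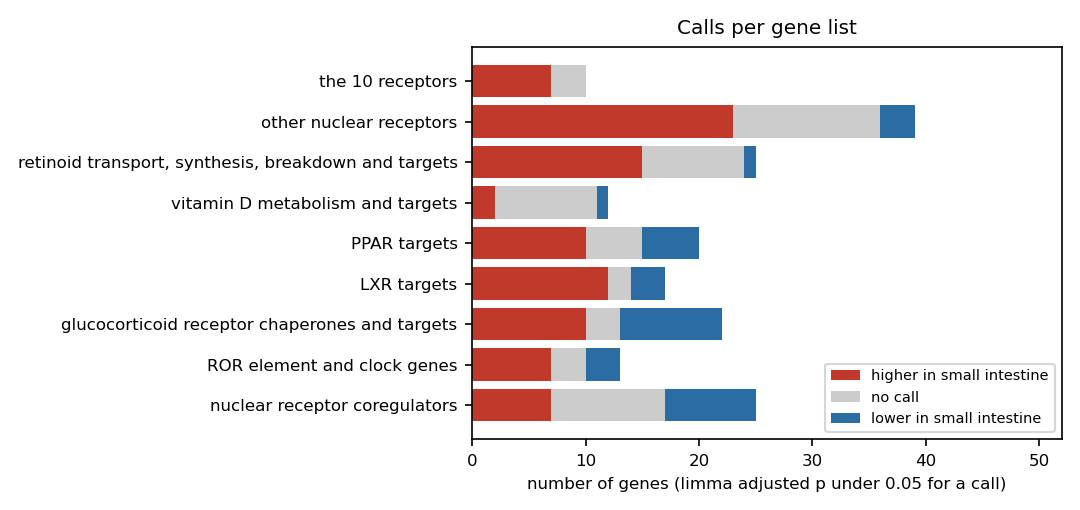
Number of genes called higher in small intestine (red), not called (grey) and called lower (blue) by limma at an adjusted p of 0.05 in the 10 receptors and 8 related gene lists. The receptors have 7 higher and 0 lower calls, other nuclear receptors 23 and 3, vitamin D genes 2 and 1, and coregulators 7 and 8. Of all genes, 22% were called higher and 12.9% lower.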

How the data were processed

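Variance-stabilised log2 values of all genes were deposited by the authors, who, per the labels and the methods of the study, ran a public pipeline on single-end reads against build GRCm38 and transformed counts in DESeq2 under R 4.0.3. Aligner, strandedness and multi-mapping rules were not given in the sources used here. The transformation was inverted in closed form. The result was whole reads for 100% of values within a tolerance of 0.05, with size factors from 0.721 to 1.53. Normalised counts are these reads over the size factor.

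Tissues were compared with limma 3.58.1 in R 4.3.3 (constant prior, no covariate, no filter, Benjamini-Hochberg over 38392 genes) on the deposited log2 values. This scale understates changes of genes with few reads. The authors used a count model in DESeq2, and the log2 unit called for limma instead. Alternatives were another scaling, a filter, log2 of normalised count plus 1, voom, a trended prior and leaving out libraries. Lengths were unions of GENCODE M21 exons, and promoter windows came from RefSeq. Other steps used Python 3.11.15 with pandas 2.3.3. With 4 libraries per tissue, a limma p-value sets the tissue difference against a spread between libraries that is drawn toward that of all genes.

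The receptors, the gene lists and the marker lists were chosen with earlier results of these data known. Named genes were all receptors and their paralogue pairs, the 2 largest called rises and falls of each list, the 3 genes nearest to the receptor with the largest rise and to that with the largest fall, and the most abundant markers. Of these, 2 genes are not reported here. Rarb, Hnf4a, Hnf4g, Rbp2, Aldh1a1, Aldh1a2 and Rai14 were named after their values were seen. A gene held by several lists, such as Lpl, was counted in each.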

Additional observations from a re-analysis of the deposited data

Results flagged for a closer look

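Within groups of 4 libraries, 6 of 106 groups held a library whose gap to its nearest neighbour took more of the range than Dixon's 95% limit, and chance alone flags about 1 in 20. Among the receptors these were Rara in small intestine, where SI_10 was lowest at 498 counts with a gap of 0.851 of the range, and Rora in bone marrow, where BM_5 was highest at 56.7 counts with a gap of 0.873. Among the related genes, Nr4a3 was lowest in SI_6 (gap 0.871), Hsd11b1 was lowest in BM_5 (gap 0.878), and Abcg8 was highest in BM_3 (gap 1, the whole range), which rests on a single read where the other marrow libraries had 0. The summed share of the eosinophil markers was lowest in SI_6, at 0.215% of reads, with a gap of 0.9, and SI_6 was also the library with the largest epithelial share.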

How the results depend on the processing

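Rara, Rxra, Vdr and Nr3c1 were called higher in all 16 alternatives, Rarg and Ppard in 15 (not after centring on the median of all genes), Nr1h3 in 8 and Rora in 5. Of 37 called genes among 41 named, 30 kept direction and call throughout. Centring on the median of all genes gave 4 receptors higher and 1 lower, other receptors 5 lower, retinoid genes 9 higher and 3 lower, vitamin D genes 0 and 2, and 4 higher PPAR targets, 4 clock genes and 2 coregulators. Quantile normalisation gave retinoid genes 9 higher and 0 lower, vitamin D genes 1 higher, coregulators 13 lower, and turned Rxrb to 0.043. A trended prior gave 5 other receptors lower. With BM_5 and SI_6 left out, chosen after seeing the data, 2 retinoid genes were lower. Over single libraries left out, retinoid genes ran from 9 to 15 higher and from 0 to 1 lower, vitamin D genes from 0 to 4 higher, and Pparg from -0.64 to 0.34. The cause of these changes was not tested. No paired analysis was possible because no number is shared between bone marrow and small intestine columns. Low counts limit Vdr and Nr1h3 in bone marrow and Pparg in small intestine, where single libraries held few reads.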
